A study of Mus musculus with 6 samples.

Results

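The genes of the CDK1-cyclin B switch were examined in fully-grown oocytes (FGOs) at the germinal vesicle (GV) stage, taken from wild type (WT) mice and from mice without Lsm14b (Lsm14b-KO). These 10 genes, out of 24255 in the deposited table, were chosen by symbol for their known roles: Cdk1, the B cyclins Ccnb1, Ccnb2 and Ccnb3, the phosphatase Cdc25b, the inhibitory kinases Wee1, Wee2 and Pkmyt1, and the small CDK-binding subunits Cks1b and Cks2. All 10 symbols were found. RNA-Seq was done on 6 libraries, 3 per genotype, each made from 20 oocytes by Smart-seq2. Both groups were on the C57BL/6J background, and females in both received 5 IU of PMSG, which drives follicle growth, 46 h before collection. The Lsm14b-KO females were homozygous for Lsm14b tm1a(KOMP)Mbp, a knockout-first allele with an inserted reporter cassette. It is not driven by any Cre, so the follicle cells around the oocytes carried it too. The females' age, their number per library and whether WT females were littermates are not given in the sources used here, so the p-values below measure the spread between these libraries, which may be technical.

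CDK1 bound to a B cyclin is the kinase, also called maturation-promoting factor, that drives entry into M phase. In a GV-stage oocyte it is kept off in prophase of the first meiosis, because WEE1-family kinases phosphorylate CDK1 and the cyclin is kept low by destruction. Meiosis resumes when CDC25 phosphatases remove the phosphate, and active CDK1 then turns its inhibitors off and its activators on, which makes the change switch-like. FGOs make little new RNA, so the transcripts measured here are largely those stored during growth, and many of them are translated only later, when their poly(A) tails are lengthened.

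The data are FPKM values, that is, fragments relative to transcript length and to the library's mapped fragments, as deposited by the authors. Levels of different genes are compared below on this per-length scale, and differences between genotypes are on the log2(FPKM + 1) scale, on which changes of low genes look smaller than they are. Lsm14b itself was listed at 2.77, 3.98 and 1.72 FPKM in WT libraries 1, 2 and 3 and at 0, 0 and 0.10 FPKM in Lsm14b-KO libraries 1, 2 and 3, which matches the labels. Read counts were not used here. From the size of the lowest steps in the values, the depth relative to WT 1 was 1 to 1.14 in the WT and 1.33 to 2.14 in the Lsm14b-KO libraries. Lsm14b-KO 1 was the nearest of its group to the WT libraries. Its correlation with them across genes was 0.952 to 0.954, and it was 0.917 with Lsm14b-KO 2 and 0.96 with Lsm14b-KO 3, whereas Lsm14b-KO 2 and 3 had 0.867 to 0.929 with the WT libraries. Results of named genes that turn on Lsm14b-KO 1 are therefore also given without it. In the fit without that library 45.3% of all tested genes passed, against 21.6% with it, and each call gained there is to be read beside that share. All 12 oocyte markers were detected. Of 12 cumulus and granulosa cell markers, 4 were at 0 in all libraries (Amh, Foxl2, Inhba and Slc38a3) and 3 reached 1 FPKM. Their summed level was 9.41 to 13.3 FPKM in WT and 6.25 to 10.2 FPKM in Lsm14b-KO libraries, against 14563 to 15668 FPKM and 13221 to 16859 FPKM for the oocyte markers. The 6 red blood cell markers in the table were all at 0.

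The 3′ ends of the transcripts were examined for the cytoplasmic polyadenylation element (CPE), the U-rich sequence through which the CPEB proteins control poly(A) tail length and translation of stored mRNAs in oocytes. The letters TTTTAT or TTTTAAT, on the transcript's strand, were searched in the last 150 nt of each gene's GENCODE transcript (vM21, GRCm38, the same assembly as mm10). They were present in 5 of the 10 genes, Ccnb1, Ccnb3, Wee2, Cks1b and Cks2, and in 24.7% of the 6313 tested genes with such a window. The windows of 30 bases around these letters are shown for the 5 genes that hold them. They are written 5′ to 3′ on the transcript's strand as DNA, and capitals mark the searched letters.
Ccnb1, chr13:100778775-100778804, minus strand: ctcatttgctgTTTTAATttatacatctga
Ccnb3, chrX:6979702-6979731, minus strand: tcttgaaattacTTTTATgaaagaagagaa
Wee2, chr6:40466757-40466786, plus strand: tttttaacataTTTTAATccagatcattgt
Wee2, chr6:40466784-40466813, plus strand: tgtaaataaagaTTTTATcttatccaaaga
Cks1b, chr3:89415518-89415547, minus strand: ggaaattttgcaTTTTATctgacagatctc
Cks1b, chr3:89415472-89415501, minus strand: ttgattaaaggaagttTTTTATaatcttaa
Cks2, chr13:51650598-51650627, plus strand: tataaatgcctgTTTTATtttacctgtttt

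The last 150 nt of Cdk1, Ccnb2, Cdc25b, Wee1 and Pkmyt1 did not hold these letters. The poly(A) signal AATAAA or its variant ATTAAA, where the pre-mRNA is cut, was found in the same window of all 10 genes and in 81.2% of tested genes. In Wee1 and Cks1b it was the variant ATTAAA, which was present in 24.2% of tested genes. The Wee1 window is shown here with these letters in capitals.
Wee1, chr7:110143247-110143276, plus strand: attgtctggtgtATTAAAagtcattccgtg

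A match is only a run of letters and does not show that a protein binds there. The deposited loci of Cdk1 (chr10:69336633-69352912) and Ccnb1 (chr13:100778737-100786486), both on the minus strand, end short of the GENCODE transcripts, so their 3′ ends in the table were not those searched. The 2 CKS genes share a short plan, with a coding sequence of 240 nt in each. Their annotated transcripts are 849 nt (Cks1b) and 692 nt (Cks2), the shortest of the 10, and the longest are those of Ccnb3 at 4554 nt and Cdk1 at 4375 nt.

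The promoters of 8 of the 10 genes (all but Wee1 and Pkmyt1) were found among RefSeq promoters (GRCm38.p6), each covering 250 bases before to 50 after the start. The letters CCAAT, the box bound by the factor NF-Y in many cell cycle promoters, were present on either strand in 7 of these 8 genes, all but Ccnb3. They were present in 37.4% of all 32851 promoters. The letters TTTGAA, the core of the cell cycle genes homology region, were present on either strand in Ccnb2, Cdk1 and Cks1b, and in 17.9% of all promoters.

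In WT oocytes the levels of the 10 genes ranged widely. Cks1b was the highest at 4321 ± 188 FPKM (SD, n = 3), rank 58 of all listed genes, and was followed by Cks2 at 3073 ± 177 FPKM (SD, n = 3). Ccnb1 came next with 374 ± 80.3 FPKM (SD, n = 3), then Ccnb2, Wee2 and Cdk1. No neighbours in this order overlapped down to Cdk1, at 12.3 ± 2.12 FPKM (SD, n = 3). Ccnb3, Wee1, Cdc25b and Pkmyt1 lay below, and each of them overlapped the next, so their order is not resolved by these libraries. Transcripts of the kinase subunit were thus scarce beside those of its cyclin and of the CKS subunits. In Lsm14b-KO oocytes Cks2 had the highest mean and Cks1b the next, with overlapping ranges. Ccnb1, Ccnb2, Wee2 and Cdk1 followed in the same order as in WT, with Ccnb2 and Wee2 overlapping. Wee1 stood alone below Cdk1 there, at rank 2798 of the listed genes against rank 5914 in WT, and Cks1b was at rank 108.

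**Figure D1:**
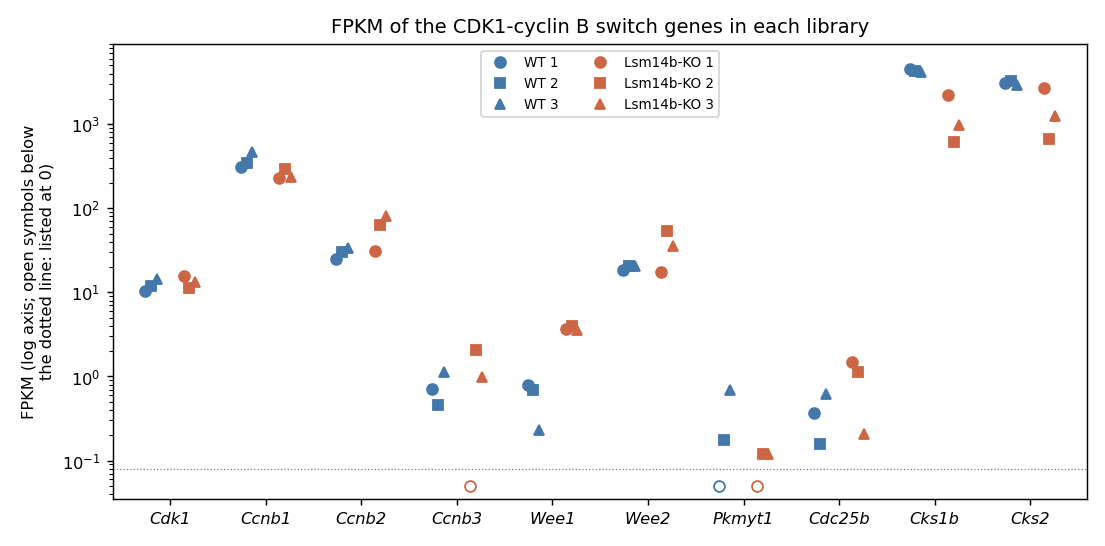
FPKM of each gene (log axis) in each of the 6 libraries, with WT in blue, Lsm14b-KO in orange, 1 symbol shape per replicate number and open symbols for values listed at 0. The 3 Lsm14b-KO points of Wee1, at 3.56 to 4.01 FPKM, sit above all WT points, and those of Cks1b, at 613 to 2196 FPKM, sit below all WT points.

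To find which of these transcripts differed between the genotypes, all 6398 genes that reached 1 FPKM in any library were fitted with limma, with adjustment over all of them. Pkmyt1 did not reach 1 FPKM, so 9 of the 10 genes were tested. Wee1 was higher and Cks1b lower in Lsm14b-KO oocytes (adjusted p under 0.05), and the other 7 did not pass. Of all tested genes 21.6% passed, 6.38% as higher and 15.2% as lower, so 2 of 9 is close to the share of all genes. The 3 Lsm14b-KO libraries did not overlap the 3 WT libraries in 4 of the 9 genes, Wee1 above and Ccnb1, Cks1b and Cks2 below. Among all tested genes 45% did not overlap, 19.1% above and 26% below. The median log2 difference was 0.12 over the 9 genes and -0.075 over all tested genes. At an unadjusted p under 0.05, 3 of the 9 genes and 2518 of all tested genes passed.

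The deposited scale bears on direction. Among all tested genes past the threshold 29.5% were higher in Lsm14b-KO oocytes, but 63.2% were higher after scaling each library to a fixed total (TPM), which moved the median difference of all tested genes by 0.48. Wee1 remained higher (log2 difference 2.07, adjusted p 0.00575 in limma) and Cks1b lower (-1.28, adjusted p 0.0180 in limma) on the TPM scale. Of the 10 genes, the study had picked out Ccnb2, Wee1 and Wee2 as higher and Cks2 as lower from these same libraries. It used cuffdiff at an FDR under 0.05, another test than the one in which Ccnb2, Wee2 and Cks2 did not pass here. The values of these genes are thus not independent evidence of their direction. The paper also reports quantitative RT-PCR of these genes, and more WEE1 protein and more CDK1 phosphorylated at Y15 by Western blot. It further reports that a WEE kinase inhibitor brought mutant oocytes to metaphase II. None of these was re-examined here.

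**Figure D2:**
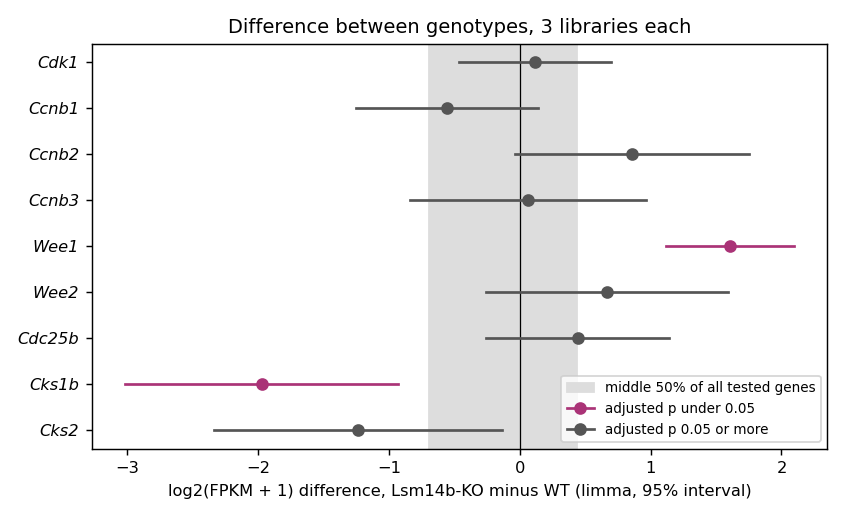
Differences between genotypes on the log2(FPKM + 1) scale for the 9 tested genes, Lsm14b-KO minus WT, with 95% intervals from limma. The grey band holds the middle 50% of all tested genes, and only Wee1 and Cks1b, in purple, passed an adjusted p of 0.05.

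Cdk1 encodes the catalytic subunit. It lies on chromosome 10 (69335146 to 69352938, minus strand, GRCm38) and had 10.4, 12.1 and 14.6 FPKM in WT and 15.6, 11.3 and 13.4 FPKM in Lsm14b-KO libraries. The groups overlapped, and Lsm14b-KO 1 was the highest of the 6. The log2 difference was 0.12 (SE 0.25, 95% interval -0.47 to 0.70, adjusted p 0.743 in limma). The exact two-sided permutation p was 0.50. The value depended on the scaling. It was 0.76 on the TPM scale (adjusted p 0.0712 in limma), above that interval, and 0.42 after quantile normalization. Under a correction for GC content and annotated transcript length it was -0.087, though the deposited Cdk1 locus ends short of that transcript. No direction is given for Cdk1.

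Ccnb1 encodes cyclin B1, the main partner of CDK1 in meiotic resumption. On chromosome 13 (100778650 to 100786570, minus strand), it had 314, 343 and 465 FPKM in WT and 226, 295 and 234 FPKM in Lsm14b-KO libraries. The Lsm14b-KO libraries were all lower than the WT libraries, but the highest of them lay close to the lowest WT value. The log2 difference was -0.56 (SE 0.30, 95% interval -1.25 to 0.14), which did not pass the test (adjusted p 0.20 in limma). Its exact two-sided permutation p was 0.10, the smallest that 3 libraries against 3 allow. Its sign depended on the scaling, since it was 0.13 on the TPM scale and 0.24 after quantile normalization. The values are also uncertain because 4 pseudogenes, among them Ccnb1-ps on chromosome 7 with 99.2% identity over 1287 aligned bases, share its sequence, and none of the 4 is in the deposited table.

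Ccnb2 encodes cyclin B2, which can also activate CDK1 in oocytes. Its gene is on chromosome 9 (70407692 to 70421547, minus strand). It had 24.7, 30.3 and 33.6 FPKM in WT and 30.7, 63.3 and 80.3 FPKM in Lsm14b-KO libraries. Lsm14b-KO 1 lay within the WT range, and the other two Lsm14b-KO libraries lay above it. The log2 difference of 0.86 (SE 0.39, 95% interval -0.038 to 1.75) did not pass (adjusted p 0.138 in limma). Without Lsm14b-KO 1 it was 1.25 and passed, with an adjusted p of 0.00477 in limma. On the TPM scale the difference was 1.54 (adjusted p 0.0626), and without Lsm14b-KO 3 it was 0.58 (adjusted p 0.373).

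Ccnb3 encodes cyclin B3, which acts at anaphase of the first meiosis. On chromosome X (6979652 to 7041619, minus strand), Ccnb3 was listed at 0.70, 0.46 and 1.14 FPKM in WT and at 0, 2.05 and 1.00 FPKM in Lsm14b-KO libraries. From the lowest steps in the values and the annotated transcript length these correspond to an estimated 11.6, 8.73 and 19.2 fragments in WT and 0, 65.4 and 35.2 fragments in Lsm14b-KO libraries. The Lsm14b-KO libraries thus held both the lowest and the highest value. The log2 difference was 0.064 (SE 0.39, 95% interval -0.84 to 0.97, adjusted p 0.912 in limma), and its sign changed with the pseudocount, so no direction can be given.

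Taken as a family, the B cyclins differed in their mix. Ccnb1 made up 92.5%, 91.8% and 93.1% of the summed B-cyclin FPKM in the WT libraries and 88.1%, 81.9% and 74.2% in the Lsm14b-KO libraries. The share of Ccnb2 was 7.29%, 8.12% and 6.71% in WT and 11.9%, 17.6% and 25.5% in Lsm14b-KO libraries. The groups did not overlap for either share (exact permutation p 0.10, two-sided, the smallest possible), and Lsm14b-KO 1 was the closest to WT. These shares make up nearly the whole sum, so they are 1 comparison. The sum itself was 339, 373 and 500 FPKM in WT and 257, 360 and 315 FPKM in Lsm14b-KO libraries, and these ranges overlapped. A share or ratio within a library does not depend on how the library was scaled. The log2 ratio of Ccnb2 over Ccnb1 was -3.67, -3.50 and -3.79 in WT and -2.88, -2.22 and -1.54 in Lsm14b-KO libraries. Its mean difference was 1.44, with an exact permutation p of 0.10 and 0.133 after adjustment over the 4 pairs of genes compared. In the 9 alternatives tried it was 1.10 to 1.77. Because the groups did not overlap, leaving out a library could not change its sign, and a replicate block leaves the value unchanged. This also holds for the pairs below whose groups did not overlap.

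Wee1 encodes the nuclear kinase that phosphorylates CDK1 on its inhibitory tyrosine in somatic cells. It lies on chromosome 7 (110122046 to 110143286, plus strand) and overlaps 1600010M07Rik on the other strand. Its level was 0.80, 0.70 and 0.23 FPKM in WT and 3.66, 4.01 and 3.56 FPKM in the Lsm14b-KO libraries. Thus every Lsm14b-KO library was above every WT library, the spread within each group was small beside the gap, and Lsm14b-KO 1 was no exception. The mean rose 6.5-fold, from 0.58 ± 0.30 to 3.74 ± 0.24 FPKM (SD, n = 3 each). The log2 difference was 1.61 (SE 0.21, 95% interval 1.12 to 2.10, adjusted p 0.00328 in limma). An exact permutation p of 0.10, the smallest possible, was obtained. The WT values rest on few fragments, an estimated 9.87, 9.90 and 2.95, against 60.2, 96.3 and 94.2 in the Lsm14b-KO libraries. Wee1 passed in all 15 alternatives that tested it, including the fit with array weights, in which the Lsm14b-KO mean rests on 1 library. The other alternatives gave adjusted p of 0.00235 to 0.0274 in limma. Differences were 1.44 to 2.86, the largest at a pseudocount of 0.01, which changes the scale.

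Wee2 encodes the germ-cell form of the kinase, also called WEE1B, which holds oocytes in prophase and acts again at exit from the second meiosis. On chromosome 6 (40439088 to 40466813, plus strand), Wee2 had 18.4, 20.8 and 20.7 FPKM in WT and 17.6, 53.7 and 35.3 FPKM in Lsm14b-KO libraries. Lsm14b-KO 1 was the lowest of the 6 libraries and Lsm14b-KO 2 the highest. The log2 difference of 0.67 (SE 0.40, 95% interval -0.25 to 1.59) did not pass (adjusted p 0.239 in limma, exact permutation p 0.40). Leaving out Lsm14b-KO 1 gave 1.09 (adjusted p 0.00977 in limma), and leaving out Lsm14b-KO 2 gave 0.31 (adjusted p 0.536). On the TPM scale the value was 1.34 (adjusted p 0.0983).

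Pkmyt1 encodes MYT1, the membrane-bound kinase that phosphorylates CDK1 on both inhibitory sites. It lies on chromosome 17 (23726336 to 23736735, plus strand), overlaps Paqr4 on the other strand and shares its deposited locus with that gene. It was listed at 0, 0.17 and 0.69 FPKM in WT and at 0, 0.12 and 0.12 FPKM in Lsm14b-KO libraries. These values stand for an estimated 5.20 fragments at most, so a difference was not detectable at this depth, and none was tested.

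Wee2 was the main transcript of the inhibitory kinases in both genotypes, with 95.9%, 96.0% and 95.8% of their summed FPKM in WT and 82.8%, 92.9% and 90.5% in Lsm14b-KO libraries. The share of Wee1 was 4.15%, 3.22% and 1.07% in WT and 17.2%, 6.93% and 9.15% in Lsm14b-KO libraries. Neither share overlapped between the groups (exact permutation p 0.10, two-sided, for each), but these shares are not independent of each other. The highest Wee1 share was that of Lsm14b-KO 1, the library in which Wee2 was lowest. The sum of the 3 kinases was 19.2 to 21.7 FPKM in WT and 21.3, 57.9 and 38.9 FPKM in Lsm14b-KO libraries, with an overlap at Lsm14b-KO 1. The log2 ratio of Wee1 over Cdk1, the kinase over its substrate, was -3.70, -4.11 and -5.97 in WT and -2.09, -1.5 and -1.92 in Lsm14b-KO libraries. It was higher in every Lsm14b-KO library, by 2.76 on average (exact permutation p 0.10, adjusted over 4 pairs 0.133), and by 1.49 to 3.21 in the 9 alternatives.

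**Figure D3:**
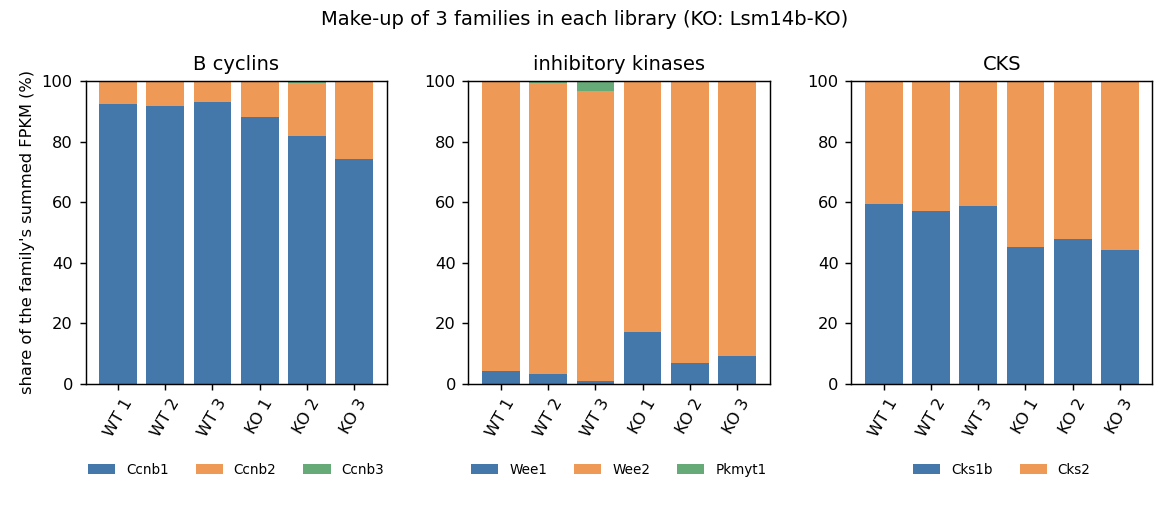
Share in percent of each gene in the summed FPKM of its family, as 1 bar per library, for the B cyclins (left), the inhibitory kinases (middle) and the CKS subunits (right). The Ccnb2 share is 6.71% to 8.12% in WT and 11.9% to 25.5% in Lsm14b-KO libraries, and the Cks1b share is above 57% in each WT library and at most 47.9% in each Lsm14b-KO library.

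Cdc25b encodes the phosphatase that oocytes need to activate CDK1 and resume meiosis. It lies on chromosome 2 (131186949 to 131198497, plus strand) and overlaps Spef1 on the other strand. It was listed at 0.36, 0.16 and 0.62 FPKM in WT and at 1.5, 1.12 and 0.21 FPKM in Lsm14b-KO libraries. Lsm14b-KO 1 and 2 were the highest, and Lsm14b-KO 3 lay within the WT range. The log2 difference was 0.44 (SE 0.30, 95% interval -0.26 to 1.14), which did not pass (adjusted p 0.299 in limma, exact permutation p 0.30). The estimated fragments were 4.07, 2.04 and 7.08 in WT and 22.4, 24.3 and 5.00 in Lsm14b-KO libraries. In the deposited table its locus spans 477414 bases and is shared by 13 symbols, so how fragments were divided among them is not known. The other members of its family, Cdc25a and Cdc25c, did not reach 1 FPKM in any library. The log2 ratio of Wee2 over Cdc25b, the opposing oocyte enzymes, was 5.66, 7.03 and 5.07 in WT and 3.55, 5.58 and 7.40 in Lsm14b-KO libraries. These overlapped (difference -0.41, exact permutation p 0.90), and the sign of the difference changed with the pseudocount.

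Cks1b and Cks2 encode the small CKS proteins, which dock CDK1-cyclin complexes onto phosphorylated substrates. Cks1b lies on chromosome 3 (89415472 to 89418383, minus strand) and had 4510, 4321 and 4133 FPKM in WT and 2196, 613 and 989 FPKM in Lsm14b-KO libraries. All Lsm14b-KO libraries were below all WT libraries, with Lsm14b-KO 1 the nearest to WT. The mean fell from 4321 ± 188 to 1266 ± 827 FPKM (SD, n = 3 each), 3.41-fold. The log2 difference was -1.97 (SE 0.45, 95% interval -3.02 to -0.93, adjusted p 0.0220 in limma, exact permutation p 0.10). It was lower in all 16 alternatives, though leaving out a library could not change the sign because the groups did not overlap. The call was lost in 5 alternatives. These were the fit with no minimum level (adjusted p 0.0643) and those without WT 1, WT 2, WT 3 or Lsm14b-KO 3 (adjusted p 0.0875 to 0.101 in limma, differences -1.90 to -2.0). Leaving out Lsm14b-KO 1 gave -2.47 (adjusted p 6.2e-04 in limma), and quantile normalization gave -1.15 (adjusted p 0.0196).

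Cks2, which female mice need to complete the first meiosis, lies on chromosome 13 (51645232 to 51650660, plus strand). It had 3076, 3248 and 2895 FPKM in WT and 2663, 665 and 1246 FPKM in Lsm14b-KO libraries. Here too the groups did not overlap, but Lsm14b-KO 1 lay just under the WT range. The mean was 3073 ± 177 FPKM in WT and 1525 ± 1028 FPKM in Lsm14b-KO libraries (SD, n = 3 each). The log2 difference of -1.24 (SE 0.48, 95% interval -2.34 to -0.13) had an adjusted p of 0.0974 in limma and did not pass. Without Lsm14b-KO 1 it was -1.75 and passed (adjusted p 0.00350 in limma), whereas without Lsm14b-KO 2 it was -0.75 (adjusted p 0.196). It was also smaller on the TPM scale, at -0.54 (adjusted p 0.171), and after quantile normalization, at -0.36 (adjusted p 0.347). The values of Cks2 are uncertain because 3 processed pseudogenes match its 240-nt coding sequence at 98.3% identity or more and are not in the deposited table, and because the small RNA gene Gm22806 overlaps it on the same strand. Whether Cks2 was lower in Lsm14b-KO oocytes is thus not settled by these libraries. Each library pools oocytes, so a loss in every oocyte and one in some oocytes could not be told apart either.

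On the per-length FPKM scale the order of the CKS pair was inverted between the groups. Cks1b made up 59.5%, 57.1% and 58.8% of the summed CKS level in the WT libraries and 45.2%, 47.9% and 44.2% in the Lsm14b-KO libraries. Every WT library thus had more Cks1b than Cks2 in FPKM, and every Lsm14b-KO library more Cks2 than Cks1b. Lsm14b-KO 1 lay between Lsm14b-KO 2 and 3. This order rests on the annotated lengths and on Cks2 values that its pseudogenes make uncertain. In estimated fragments Cks1b stayed above Cks2 in Lsm14b-KO 1 (8972 against 8870) and 2 (3651 against 3231), but not in 3 (6497 against 6675). A shift of the ratio between the groups does not depend on these lengths. The log2 ratio of Cks2 over Cks1b was -0.55, -0.41 and -0.51 in WT and 0.28, 0.12 and 0.33 in Lsm14b-KO libraries. The difference of 0.74 had an exact permutation p of 0.10 (adjusted over 4 pairs 0.133) and was 0.69 to 0.91 in the 9 alternatives. The summed CKS level was 7585, 7569 and 7028 FPKM in WT and 4859, 1278 and 2235 FPKM in Lsm14b-KO libraries.

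Transcript length moved with the differences across all genes. Among tested genes of up to 1000 nt, to which both CKS genes belong, the median log2 difference was -0.62 over 951 genes, and 20.7% were called lower. It was -0.31 over 1833 genes of 1000 to 2000 nt, the class of Ccnb2, and 0.12 over 2220 genes of 2000 to 4000 nt, the class of Ccnb1, Cdc25b, Wee1 and Wee2. It was 0.29 over 1314 genes longer than 4000 nt, the class of Cdk1 and Ccnb3 by annotated length. The deposited locus of Cdk1 ends short of that transcript, so the length behind its FPKM may be shorter. Of the genes of 2000 to 4000 nt, 8.65% were called higher. After a correction for length and GC content in each library, Wee1 had a log2 difference of 1.46 (adjusted p 0.00409 in limma) and Cks1b one of -1.32 (adjusted p 0.0114), and both calls held. The difference of Cks2 was then -0.41 (adjusted p 0.212) and that of Ccnb2 1.15 (adjusted p 0.0778). The part of length in the differences of single genes was not tested further.

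**Figure D4:**
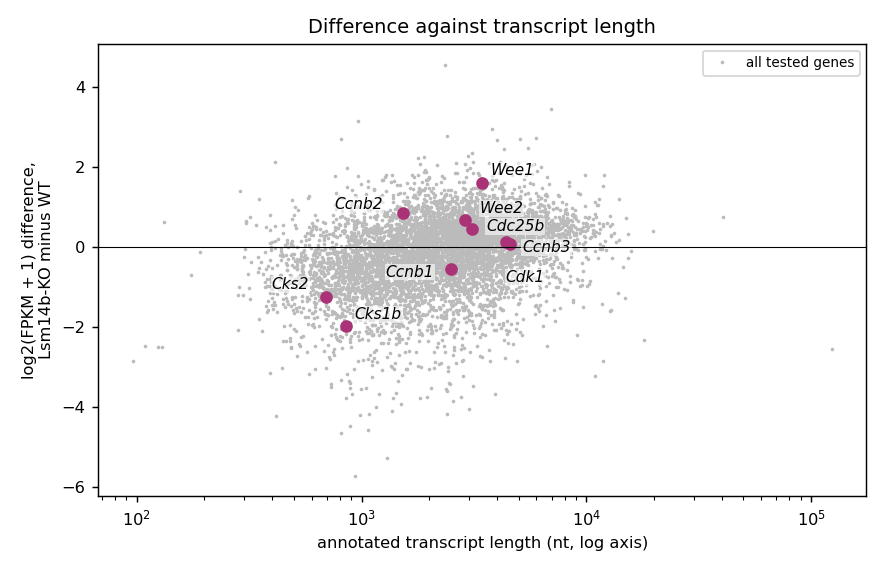
The log2(FPKM + 1) difference between genotypes against the annotated transcript length (log axis), with each tested gene in grey and the 9 tested switch genes in purple. The CKS genes lie at the short end, where the median difference of genes up to 1000 nt is -0.62, and Wee1 lies far above the median of 0.12 of its length class.

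Other genes that act on the switch were listed by role. All 52 of them were in the table, 32 were tested, and 2 were called, both higher, beside 21.6% of all tested genes. At an unadjusted p under 0.05, 6 were higher and 2 lower, beside 2518 of all 6398 tested genes in either direction. The median log2 difference of the 32 was 0.17, against -0.075 over all tested genes, and 23 of the 32 were positive. The count moved with single libraries, as did the share of all tested genes past the threshold. In limma it was 13 of 32 without Lsm14b-KO 1, where 45.3% of all tested genes passed. It was 0 without any single library other than Lsm14b-KO 1, where 4.92% to 13.5% of all tested genes passed. An unadjusted p under 0.05 was held there by 3 to 6 list genes and by 1816 to 2064 of all tested genes.

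Both called genes belong to the machinery of cyclin B destruction, of which all 6 listed genes were tested. Fbxo5 encodes EMI1, an inhibitor of the anaphase-promoting complex that lets cyclin B build up. It had 7.21, 9.16 and 10.5 FPKM in WT and 13.5, 76.5 and 40.6 FPKM in Lsm14b-KO libraries, with no overlap, and rose by 1.87 on the log2 scale (SE 0.56, adjusted p 0.0475 in limma). Its difference was 2.53 without Lsm14b-KO 1 (adjusted p 0.00131), and without any one of the other five libraries it was 1.32 to 1.98 and did not pass (adjusted p 0.0955 to 0.165). The study had also named it from these libraries, and reports quantitative RT-PCR of it. Ube2s encodes the enzyme that extends ubiquitin chains on targets of the same complex. It had 0.71, 0.30 and 0.67 FPKM in WT and 1.31, 2.53 and 1.91 FPKM in Lsm14b-KO libraries, and rose by 0.89 (SE 0.23, adjusted p 0.0323 in limma). It was 1.05 without Lsm14b-KO 1 (adjusted p 0.00897), and without any one of the other five libraries it was 0.74 to 0.96 and did not pass (adjusted p 0.0824 to 0.118). Cdc20, an activator of the complex, did not pass: it had 0.66, 1.30 and 0.64 FPKM in WT and 0.50, 0.43 and 0.15 FPKM in Lsm14b-KO libraries.

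The remaining lists had 0 called genes in limma, with 4 higher and 2 lower at an unadjusted p under 0.05. Such a p was held by 2518 of all 6398 tested genes. All 4 kinases that act on CDC25 and WEE1 had positive differences, with a median of 0.41, and Plk1 had the lowest adjusted p of them in limma, 0.122. Of the Greatwall and PP2A-B55 genes, which keep CDK1 substrates phosphorylated or remove that phosphate, 7 of 8 were tested. Mastl, which encodes the Greatwall kinase, had 7.56, 7.69 and 7.85 FPKM in WT and 4.84, 20.1 and 15.5 FPKM in Lsm14b-KO libraries, a difference of 0.54 (SE 0.45, adjusted p 0.383 in limma). Its substrate Arpp19 had 151, 145 and 118 FPKM in WT and 123, 48.7 and 54.2 FPKM in Lsm14b-KO libraries, a difference of -0.98 (SE 0.40, adjusted p 0.108 in limma). In both genes Lsm14b-KO 1 lay away from the other two Lsm14b-KO libraries. Without it the difference of Mastl was 1.10 (adjusted p 0.00498 in limma) and that of Arpp19 -1.40 (adjusted p 0.00228). Without any single other library neither gene passed. The difference of Mastl was then 0.18 to 0.55 (adjusted p 0.510 to 0.792 in limma) and that of Arpp19 -1.09 to -0.74 (adjusted p 0.182 to 0.291). The paper reports no significant difference in Mastl mRNA by quantitative RT-PCR, and MASTL protein that was almost undetectable in Lsm14b-KO oocytes. The RNA values here do not measure the protein. Of the MOS and MAPK genes 5 of 6 were tested. Mapk3, which encodes ERK1, came nearest to the threshold, with a difference of 1.47 (SE 0.45, adjusted p 0.0506 in limma). Its difference was 1.97 without Lsm14b-KO 1 (adjusted p 0.00274 in limma). Leaving out any single other library gave 1.08 to 1.69, and Mapk3 did not pass (adjusted p 0.09995 to 0.166 in limma). The study had also named Mapk3 and Plk1 as higher from these libraries, and reports quantitative RT-PCR of both.

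Most of the genes that hold the oocyte in prophase through cyclic AMP were too low to test. Of 8 listed, only Prkar1a, a regulatory subunit of protein kinase A, was tested. It had a difference of 0.63 (SE 0.25, adjusted p 0.105 in limma). Among the cyclins and kinases of other cell cycle phases 2 of 8 were tested, and Ccna2, which encodes cyclin A2, had 3.82 FPKM in WT and 4.46 FPKM in Lsm14b-KO libraries on average (difference 0.18, adjusted p 0.550 in limma). The 3 genes of the CDK-activating kinase were tested and did not pass. Of the genes for WEE1 destruction 3 of 4 were tested, and Btrc, which encodes the F-box protein that marks WEE1, had 0.30, 0.55 and 0.75 FPKM in WT and 0.83, 2.45 and 1.38 FPKM in Lsm14b-KO libraries (adjusted p 0.0989 in limma).

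The genes most like a member were found by the root mean square of the difference between their log2(FPKM + 1) profiles over the 6 libraries, each centred on its WT mean, among 5007 genes with a mean of at least 1 FPKM. Nearest to Cdk1 were Ap2b1, Akr1a1 and Zfp946, at 0.067 to 0.085. Nearest to Ccnb1 were Mfsd2a, at 0.050, Obox3 and Ube2f. The profile of Wee1 was less closely matched, by Rnf170 at 0.12, Cdo1 at 0.15 and Id3 at 0.18. Cdo1 had 11.2 to 12.6 FPKM in WT and 35.9 to 39.8 FPKM in Lsm14b-KO libraries. Its Lsm14b-KO 1 value lay near those of the other Lsm14b-KO libraries, which follows from its choice by likeness to Wee1.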

How the data were processed

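The titles gave the group and replicate number of each of the 6 libraries. The authors aligned reads with TopHat2 (version 2.0.13) to mm10 and computed FPKM with Cufflinks (version 2.2.1), and deposited 1 FPKM column per library. The gene annotation, strandedness and read counts are not given in the sources used here, and the kit is named differently in 2 places. The authors' 3 comparison columns (fold change, p and q) were not used. Tests used log2(FPKM + 1). Genes that reached 1 FPKM in any library were tested, in R 4.3.3, with limma 3.58.1 (eBayes with trend, genotype only, two-sided, Benjamini-Hochberg over all tested genes, threshold 0.05). Exact permutation tests used scipy 1.17.1. The depth behind a value is known only as an estimate from the lowest steps, and 3 libraries a group limit the precision. Gene models came from GENCODE vM21, and copies were searched with blastn 2.17.0 (at least 95% identity over 200 bases). The members and lists were chosen with earlier results of these data known. Named genes were the 10 members, Lsm14b, called genes of the other lists and those whose role a result needs, and the 3 nearest genes by profile to Cdk1, Ccnb1 and Wee1. Alternatives tried were pseudocounts, minimum levels, scalings, a length and GC correction, fits without the trend, with array weights or with a replicate block, and leaving out each library.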

Additional observations from a re-analysis of the deposited data

How the results depend on the processing

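The number of tested genes past the threshold, 1383, was 720 with no minimum level, 4383 with array weights and 315 to 2898 when 1 library was left out, lowest without Lsm14b-KO 3 and highest without Lsm14b-KO 1. The array weights did not converge and gave Lsm14b-KO 3 a weight of 34.2, against 0.142 for Lsm14b-KO 1 and 0.217 for Lsm14b-KO 2. The Lsm14b-KO mean in that fit thus rests on 1 library, while the WT libraries had weights of 0.801 to 1.21. Of the members, 2 passed in the fit as reported, 1 with no minimum level, 1 at a minimum of 5 FPKM (where Wee1 was not tested), 6 with array weights and 1 to 5 when 1 library was left out. Of the other switch genes, 2 passed in the fit as reported, 1 at a pseudocount of 0.01, 0 with no minimum level (11 at an unadjusted p under 0.05), 4 on the TPM scale, 22 with array weights and 0 to 13 when 1 library was left out (3 to 17 at an unadjusted p under 0.05 in limma). Among all tested genes an unadjusted p under 0.05 was held by 3358 with no minimum level and by 1816 to 3468 when 1 library was left out. Signs turned for low or small differences. For Ccnb3 the difference was -0.42 at a pseudocount of 0.1, -1.41 at 0.01, -0.013 under the length and GC correction and -0.30 to 0.50 when 1 library was left out. For Ccnb1 it was 0.13 on the TPM scale and 0.24 after quantile normalization, for Cdk1 -0.087 under the length and GC correction but 0.76 on the TPM scale, and for Cdc25b -0.14 with array weights. The log2 ratio of Wee2 over Cdc25b was 0.22 with a pseudocount of 1 FPKM, 0.32 under the length and GC correction and -1.36 to 0.57 when 1 library was left out. The causes were not tested. With array weights Ccnb1 passed at -0.62 (adjusted p 0.00292 in limma), as did Ccnb2, Wee2 and Cks2.

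Replicate numbers are shared by the groups, but the deviations of same-numbered libraries from their group means correlated at 0.19, -0.13 and 0.018. These values gave no sign of pairing, but with 3 libraries a group they cannot exclude it. With the replicate number as a block, 1244 tested genes, 2 members and 2 other switch genes passed, and the ratios, with unchanged values of 2.76, -0.41, 1.44 and 0.74, had exact permutation p of 0.25 for all but Wee2 over Cdc25b, which had 1. The smallest p that 3 pairs allow is 0.25. The values of Pkmyt1 and Cdc25b, and those of Ccnb3 and Wee1 in WT, rest on an estimated 24.3 fragments or fewer in each library, and differences there are limited by depth.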
